A study of Mus musculus with 8 samples.

Results

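The genes described here are those of the phagocyte NADPH oxidase: Cybb, Cyba, Ncf1, Ncf4 and Rac2, which encode subunits, and Hvcn1, which encodes a proton channel that works beside them. They were taken by symbol from a table of read counts for 21878 gene symbols, where all 6 were found. All 6 also passed the filter on low counts that left 11718 genes for testing. The counts come from whole peripheral blood of wild-type (WT) female C57BL/6 mice, 6 to 8 weeks old, with 1 library for each of 8 mice. In the stress group (n = 4) mice were restrained for 6 hours in a ventilated tube, and in the control group (n = 4) littermates stayed unrestrained in their cage. Neither group had food or water during this time, so both were deprived of them alike. The comparison asks whether transcripts of the oxidase genes in blood differ after acute restraint, and p-values measure the spread between these mice.

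The oxidase of phagocytes moves electrons from NADPH across the membrane onto oxygen and so makes superoxide, from which hydrogen peroxide and hypochlorous acid are formed to kill ingested microbes. Its membrane part is a pair of gp91phox (from Cybb), which carries the electrons, and p22phox (from Cyba), which stabilises it. In resting cells p47phox (Ncf1) and p40phox (Ncf4) stay in the cytosol, and on activation they join the membrane part together with a Rac GTPase. The channel of Hvcn1 lets protons follow the electrons and thereby balances the charge. Loss of the oxidase causes chronic granulomatous disease. Neutrophils, monocytes and eosinophils are rich in the enzyme, B cells carry it at a lower level and express Hvcn1, and Rac2 is found throughout the blood lineages.

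The genes lie apart from each other in the GENCODE M21 annotation of GRCm38, except Ncf4 and Rac2. Cybb is at chrX:9435252-9487771 (minus strand, 15 exon blocks), Cyba at chr8:122424776-122432930 (minus strand, 7) and Ncf1 at chr5:134220053-134229625 (minus strand, 11). Ncf4 is at chr15:78244801-78262580 (plus strand, 11) and Rac2 on the same chromosome at chr15:78559167-78572783 (minus strand, 7). Hvcn1 is at chr5:122206804-122242297 (plus strand, 8). Of the merged exons of Hvcn1, 1574 bases (44.2%) overlap exons of Tctn1 on the opposite strand, and of those of Ncf1 408 bases (11.1%) overlap exons of Gtf2ird2. The strand setting of the counting is not given in the sources used here, so reads in these stretches could belong to either gene. Cybb, Ncf4 and Rac2 shared no exact stretch of 50 bases with the transcripts of another gene, whereas Cyba shared 1 of 50 bases with Wdr37.

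The promoters of Cybb and Cyba are shown because their products form 1 membrane complex while their levels went apart between libraries, and that of Ncf1 is shown as the cytosolic subunit beside them. The sequences are from RefSeq (GRCm38.p6), run from 250 bases before to 30 after the transcript start and are written 5′ to 3′ on the strand of the gene, which is minus for all 3. The RefSeq start of Cybb lies inside the span that GENCODE gives for the gene. Capitals mark matches on either strand to 3 motifs: GAGGAA (a PU box, the core read by PU.1), CCAAT, and an interferon-regulatory repeat, GAAA followed by any 2 bases and GAAA again.
Cybb, chrX:9469295-9469574: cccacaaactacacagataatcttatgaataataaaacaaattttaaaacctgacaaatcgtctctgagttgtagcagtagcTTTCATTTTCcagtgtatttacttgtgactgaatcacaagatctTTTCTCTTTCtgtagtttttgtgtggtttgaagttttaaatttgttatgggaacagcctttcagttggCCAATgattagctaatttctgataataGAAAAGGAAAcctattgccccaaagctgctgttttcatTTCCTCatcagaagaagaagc
Cyba, chr8:122432911-122433190: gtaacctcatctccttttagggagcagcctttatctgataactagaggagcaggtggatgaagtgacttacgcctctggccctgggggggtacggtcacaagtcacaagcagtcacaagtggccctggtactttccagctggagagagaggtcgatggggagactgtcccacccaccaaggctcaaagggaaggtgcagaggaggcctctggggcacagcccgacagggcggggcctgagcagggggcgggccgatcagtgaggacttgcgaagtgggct
Ncf1, chr5:134229596-134229875: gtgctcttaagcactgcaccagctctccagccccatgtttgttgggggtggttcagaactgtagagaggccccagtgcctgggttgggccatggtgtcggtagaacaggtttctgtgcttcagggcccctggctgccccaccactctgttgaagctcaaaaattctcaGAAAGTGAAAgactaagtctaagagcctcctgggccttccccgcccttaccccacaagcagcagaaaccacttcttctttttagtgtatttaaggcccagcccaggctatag
In the Cybb window the GAAA repeat began at -168, -124 and -29 from the start, CCAAT at -56 and GAGGAA at 10, with no overlap between matches. The Ncf1 window held 1 match, the GAAA repeat at -82, and the Cyba window held none of the 3 motifs. Over 32851 promoter windows of the same length, GAGGAA was present in 25.984%, CCAAT in 36.0872% and the GAAA repeat in 3.2784%. A match is a description of these letters and not evidence of binding.

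The libraries held 31471145 to 39014775 counts in the control group and 25978683 to 29655725 in the stress group. Haemoglobin genes took 51.9% to 63.8% of the control counts and 61.2% to 75.5% of the stress counts, so that 11409246 to 18771951 and 6352711 to 11007593 counts remained outside them. Levels are therefore given as CPM (counts scaled to a common library size) scaled by TMM, a method that takes most genes as unchanged, with factors of 1.01 to 1.77 and 0.507 to 1.10. Log2 fold changes are stress minus control from edgeR's quasi-likelihood test, with p-values adjusted by Benjamini-Hochberg over all tested genes. The smallest count of a member in a library was 389, for Hvcn1 in stress replicate 3, with an exact 95% Poisson interval of 351 to 430 that covers counting error only.

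With edgeR and TMM scaling, no oxidase gene of the 6 passed a threshold, and Cyba and Hvcn1 came closest. At the thresholds of the study (absolute log2 fold change above 1 and adjusted p below 0.01), edgeR called 0 of the 6 members, against 1.71% of all tested genes (1.69% higher and 0.0171% lower). The paper used these thresholds with DESeq2 and reported 307 genes as higher and 12 as lower. DESeq2 gave the same counts here and called 0 members. At an adjusted p below 0.05 without a fold threshold, edgeR's quasi-likelihood test also passed 0 of 6, against 14.1% of all genes (10.4% higher and 3.69% lower). Before adjustment 2 members had a p under 0.05, Cyba on the higher and Hvcn1 on the lower side, against 31.1% of all genes (18.2% on the higher and 13% on the lower side). DESeq2 passed the same 2 members at an adjusted p below 0.05, against 16.9% of all genes with that tool (12.2% higher and 4.76% lower). The groups did not overlap in these 2 genes either, an order seen in 21% of all genes (11.1% with stress above and 9.88% with stress below). The median log2 fold change of the members was 0.02, beside -0.03 over all tested genes. The CPM of the 6 genes summed to 403 to 437 in control libraries and 376 to 457 in stress libraries.

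**Figure D1:**
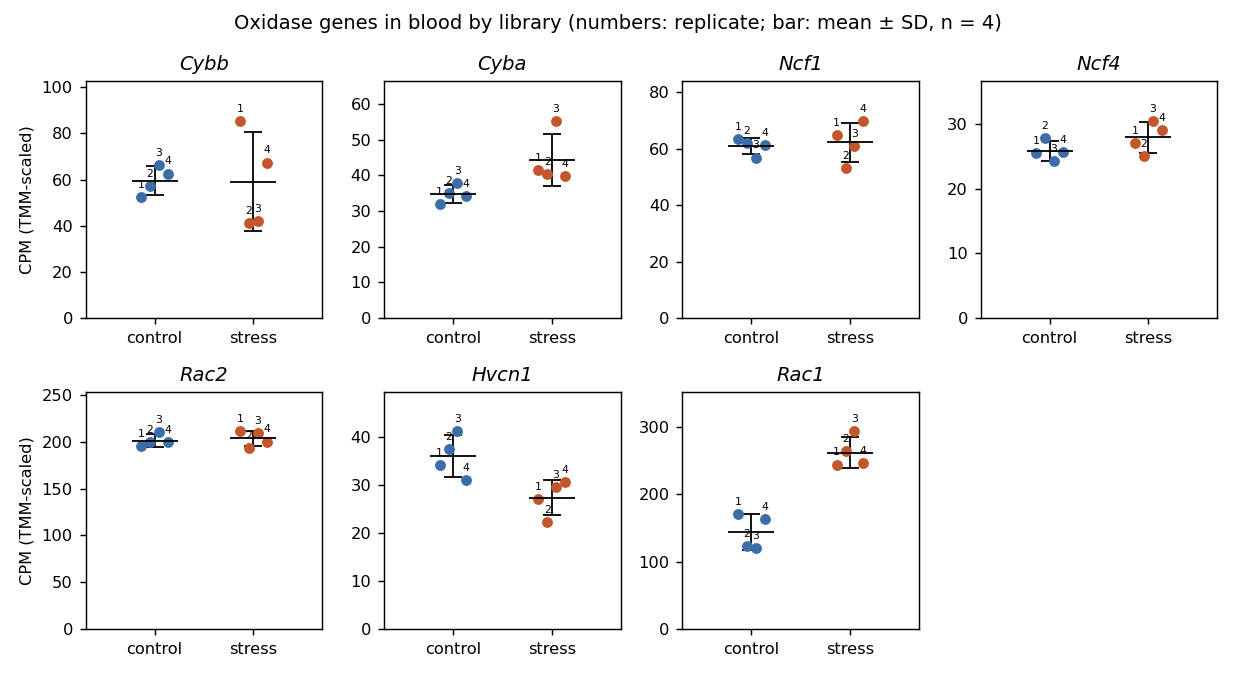
TMM-scaled CPM (linear axes from 0) of the 6 members and of Rac1 in each of the 8 libraries, with the replicate number beside each point and the mean and SD of 4 libraries as bars. Rac2 lay at 194 to 211 CPM in all 8 libraries, the 4 stress libraries spread over 41.2 to 85.6 CPM for Cybb, and the groups parted for Cyba, Hvcn1 and Rac1.

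Cybb, the catalytic subunit, was the member that varied most within the stress group. Its CPM was 52.4, 57.0, 66.3 and 62.6 in control replicates 1 to 4 and 85.6, 41.2, 42.0 and 67.4 in stress replicates 1 to 4. Stress replicate 1 was the highest of all libraries and stress replicates 2 and 3 were the lowest, so that the stress values enclosed the control values. The means of control and stress were 59.6 ± 6.09 and 59.0 ± 21.5 CPM (SD, n = 4 each), with coefficients of variation of 10.2% and 36.4%. The log2 fold change was -0.01 (standard error 0.21, 95% interval -0.47 to 0.45, edgeR's quasi-likelihood test, adjusted p = 0.977). This interval is the widest among the members.

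Cyba, the partner that keeps gp91phox stable, leaned to higher values. Its CPM was 31.9, 34.9, 37.9 and 34.1 in the control libraries and 41.5, 40.4, 55.3 and 39.9 in the stress libraries. Every stress library lay above every control library, and stress replicate 3 stood far above the other 3. The means were 34.7 ± 2.49 and 44.3 ± 7.39 CPM (SD, n = 4 each), a log2 fold change of 0.35 (standard error 0.12, 95% interval 0.09 to 0.61). With edgeR the adjusted p was 0.0706, and with DESeq2 it was 0.0478 at a log2 fold change of 0.36, so the call depends on the tool. On total counts alone in place of TMM, the direction turned (log2 fold change -0.50, adjusted p = 0.196 with edgeR).

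The cytosolic subunits showed no difference larger than their spread. For Ncf1, the organiser p47phox, the CPM was 63.5, 61.8, 56.8 and 61.1 in control libraries and 64.6, 53.1, 60.9 and 69.9 in stress libraries. The groups overlapped, with both the lowest and the highest value in the stress group, and the log2 fold change was 0.03 (standard error 0.11, 95% interval -0.20 to 0.27, edgeR, adjusted p = 0.877). For Ncf4, which encodes p40phox, the CPM was 25.5, 27.8, 24.2 and 25.6 in control libraries and 27.0, 25.1, 30.5 and 29.1 in stress libraries. These ranges overlapped as well, and the log2 fold change was 0.11 (standard error 0.10, 95% interval -0.10 to 0.33, edgeR, adjusted p = 0.478).

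Rac2, the GTPase typical of blood cells, was the steadiest member. Its CPM was 195.7, 199.2, 210.8 and 199.3 in control libraries and 211.2, 193.6, 209.5 and 200.2 in stress libraries. The groups lay over each other, with coefficients of variation of 3.27% and 4.04%. The log2 fold change was 0.02 (standard error 0.12, 95% interval -0.24 to 0.27, edgeR, adjusted p = 0.942).

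Hvcn1 was the only member with stress below control in every library. Its CPM was 34.2, 37.6, 41.2 and 31.0 in the control libraries and 27.1, 22.3, 29.5 and 30.6 in the stress libraries. The groups parted by a narrow margin, between control replicate 4 at 31.0 and stress replicate 4 at 30.6. The means were 36.0 ± 4.40 and 27.4 ± 3.71 CPM (SD, n = 4 each), and the log2 fold change was -0.40 (standard error 0.13, 95% interval -0.67 to -0.13), larger in size than that of 68.6% of all tested genes. With edgeR the adjusted p was 0.0503, just outside the threshold. It was 0.0358 with DESeq2, 0.0470 with upper quartile scaling, 0.0362 without stress replicate 4 and 0.159 without control replicate 3. Since 44.2% of its exon bases are shared with Tctn1 on the other strand, part of its counts is uncertain.

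The sign of Cyba, Ncf1, Ncf4 and Rac2 depended on the scaling of the libraries. With total counts alone, all tested genes together had a median of -0.82 on the log2 scale, and all 6 members had a value below 0. Relative to that median, Cybb stood at 0.07, Cyba at 0.32, Ncf1 at 0.10, Ncf4 at 0.14, Rac2 at 0.04 and Hvcn1 at -0.38, near their values with TMM. Taking values relative to the median also treats the typical gene as unchanged, so this likeness is no separate evidence for TMM. In the stress libraries the members took 0.0887% to 0.124% of the counts outside haemoglobin, and in the control libraries 0.115% to 0.161%.

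**Figure D2:**
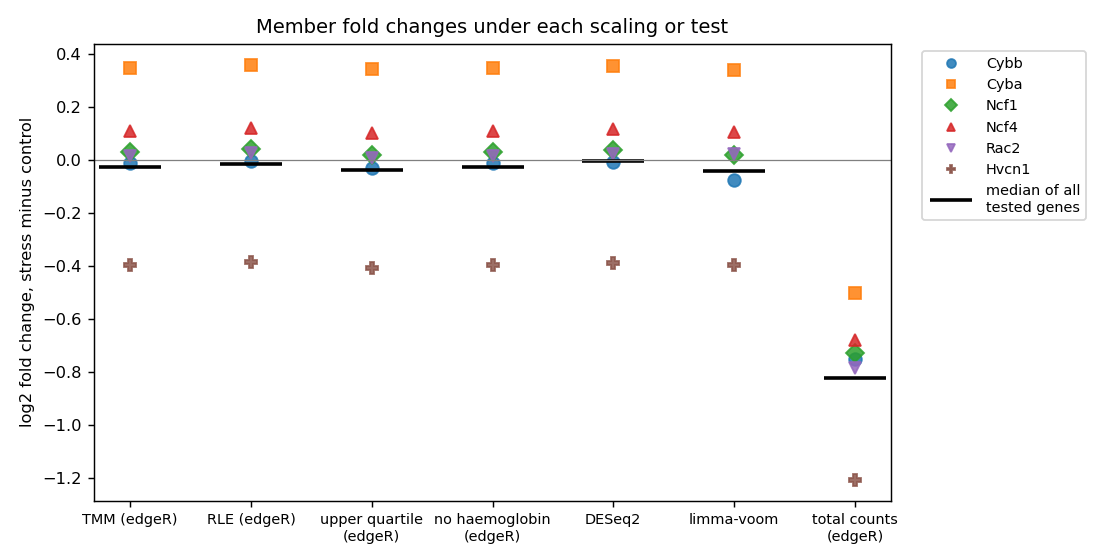
Log2 fold change (stress minus control) of each member under 7 scalings or tests, with the median of all tested genes as a black bar. Under total counts alone all 6 members and the median of all genes (-0.82) lie below 0, and in the other 6 columns Cyba is the highest and Hvcn1 the lowest member.

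Per kilobase of exon, Rac2 had the highest level of the members in the control group, 64.9 ± 2.12 CPM per kb (SD, n = 4). Cyba followed at 33.4 ± 2.40, Ncf1 at 16.6 ± 0.776 and Ncf4 at 12.8 ± 0.733 CPM per kb, and the control ranges of neighbours in this order did not overlap. Cybb at 10.3 ± 1.05 and Hvcn1 at 10.1 ± 1.23 CPM per kb could not be ordered, as their control libraries overlapped. In the stress group the order of the means was the same: 65.6 ± 2.65 for Rac2, 42.6 ± 7.11 for Cyba, 17.0 ± 1.92 for Ncf1, 13.8 ± 1.18 for Ncf4, 10.2 ± 3.70 for Cybb and 7.68 ± 1.04 for Hvcn1 (CPM per kb, SD, n = 4). There the ranges of Ncf1 (14.5 to 19.1) and Ncf4 (12.4 to 15.1) overlapped, as did those of Ncf4, Cybb (7.09 to 14.7) and Hvcn1 (6.25 to 8.59) with their neighbours. The 2 genes of the membrane pair thus differed in level per length, with Cyba above Cybb in each library. The lengths were merged exons, 5808 bases for Cybb and 1039 for Cyba, and the order of the genes depends on them.

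Ratios between members within a library do not depend on the scaling, and 15 pairs were compared with a two-sided exact permutation test whose smallest p is 0.0286. After adjustment 0 pairs passed, and with this smallest p a pair could pass only if most of the 15 reached it. It was reached by 5 pairs (adjusted p = 0.0857), all with stress above control in every library. This direction depends on which gene is the denominator, here Hvcn1 in all of them but Cyba to Rac2. The widest was Cyba to Hvcn1, with count ratios of 0.933, 0.929, 0.920 and 1.10 in control libraries and 1.53, 1.81, 1.87 and 1.30 in stress libraries. The ratio was 1.67-fold higher under stress. The other 4 were Ncf1, Ncf4 and Rac2 to Hvcn1 (log2 differences of 0.42, 0.51 and 0.41) and Cyba to Rac2 (0.32). For Ncf1 to Rac2 the log2 difference was 0.01 (exact permutation test, p = 0.886).

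The 2 genes of the membrane pair were the least alike. The count ratio of Cybb to Cyba was 1.65, 1.63, 1.75 and 1.84 in the control libraries and 2.06, 1.02, 0.759 and 1.69 in the stress libraries. The control libraries lay close together, whereas the stress libraries fell on both sides of them. The group difference was -0.42 on the log2 scale (exact permutation test, p = 0.371, adjusted 0.506). Over all 8 libraries the centred log2 CPM of Cybb and Cyba differed by a root mean square of 0.458, the largest among the 15 pairs. The smallest were 0.10 for Ncf1 and Ncf4, 0.106 for Ncf4 and Rac2 and 0.115 for Ncf1 and Rac2.

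Rac1, the GTPase found in most cells, had 170.0, 123.2, 119.9 and 163.7 CPM in control libraries and 244.0, 264.1, 293.4 and 245.6 CPM in stress libraries. All stress libraries were above all control libraries, and Rac1 rose by 0.86 on the log2 scale (standard error 0.15, edgeR, adjusted p = 0.00322). On total counts alone it did not pass (0.09, edgeR, adjusted p = 0.795), and 51.4% of its exon bases overlap Daglb on the opposite strand. Rac1 was lowest in control replicate 3 and highest in stress replicate 3. The summed platelet markers (1501 to 2195 CPM in control and 3316 to 4015 CPM in stress libraries) had the same lowest and highest library. So did the summed red cell markers (9110 to 25289 and 19316 to 41712 CPM). Control replicate 3 also had the largest TMM factor (1.77) and stress replicate 3 the smallest (0.507). The part of platelets, red cells or scaling in the value of Rac1 was not tested. Noxo1, the organiser of another oxidase, was near the detection limit (log2 fold change -0.38, standard error 0.46, edgeR, adjusted p = 0.611). Nox1, Nox3, Nox4, Noxa1, Duox1 and Duox2, subunits of oxidases of other tissues, had at most 18 counts in a library and were not tested.

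Set against Rac2 within the same library, Rac1 also differed, in a ratio chosen after its values were seen. The count ratio of Rac1 to Rac2 was 0.869, 0.619, 0.569 and 0.821 in control libraries and 1.16, 1.36, 1.40 and 1.23 in stress libraries. Every stress library lay above every control library, and the ratio was 1.81-fold higher under stress (exact permutation test, two-sided, p = 0.0286 and so the smallest possible). Thus Rac2 had more counts than Rac1 in the 4 control libraries and fewer in the 4 stress libraries. As Rac1 alone already separated the groups while Rac2 was steady, the test of this ratio is no separate evidence.

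The genes around the oxidase were listed by function: 76 genes in 6 lists, of which 66 were tested. Of these, 33 passed an adjusted p of 0.05 with edgeR, 32 higher and 1 lower in the stress group. Over all tested genes 14.1% passed (10.4% higher and 3.69% lower). On total counts alone, where the median of all tested genes was -0.82, 18 pathway genes passed, 3 higher and 15 lower. No share of all tested genes is given for that scaling, so these counts have no background beside them. Of the pathway genes named as rising in this text Cebpb alone still passed with that scaling. Receptors that trigger the burst held the most: 11 of 15 rose and 0 fell, with a median log2 fold change of 1.19. Among them were Fcgr3, a receptor for antibody-coated particles (1.18, standard error 0.16), Tlr2, a sensor of bacterial lipoproteins (1.29, standard error 0.18), and Tnfrsf1a, a receptor of TNF (0.86, standard error 0.13).

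Of 20 genes that control assembly of the oxidase, 4 rose, 1 fell and 15 did not pass, with a median of 0.13. By the same rule 10.4% of all tested genes rose and 3.69% fell. Pla2g4a, the cytosolic phospholipase that releases arachidonic acid, rose by 0.88 (standard error 0.15, edgeR, adjusted p = 0.00283). The kinase gene Mapk14 (p38) rose by 0.41 and Rap1a, a small GTPase found with the membrane part, by 0.47, although on total counts alone both had negative values (-0.35 and -0.34). Prkcb, a protein kinase C that phosphorylates p47phox and is also abundant in B cells, fell by 0.50 (standard error 0.14, edgeR, adjusted p = 0.0360). With a library left out Rap1a and Prkcb lost their call in 4 of 8 fits each and Mapk14 in 3.

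Enzymes on both sides of the reaction rose in part with TMM scaling, where 10.4% of all tested genes rose and 3.69% fell. For the supply of NADPH, 4 of 7 tested genes rose and 0 fell, among them Taldo1 (0.91), Idh1 (0.72) and Pgd of the pentose phosphate pathway (0.71, standard error 0.12, edgeR, adjusted p = 0.00242). On total counts alone Pgd and Idh1 had values just below 0 (-0.05 and -0.08). Of 12 tested genes that handle superoxide and peroxide, 8 rose and 0 fell, with a median of 0.88. Gsr, glutathione reductase, rose by 1.01 (standard error 0.14), Prdx5 by 0.92 and Prdx6 by 0.87, whereas on total counts alone they had 0.28, 0.10 and 0.07 and did not pass. The level summed over this list was 1304 to 3625 CPM in control and 3201 to 6631 CPM in stress libraries, and that of the red cell markers was 9110 to 25289 and 19316 to 41712 CPM. Both sums, and that of the NADPH supply genes (344 to 490 and 571 to 839 CPM), were lowest in control replicate 3 and highest in stress replicate 3. The part of red cells in these lists was not tested. Mpo and Epx, whose enzymes turn hydrogen peroxide into hypohalous acids, had at most 8 counts in a library and were not tested.

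Of 9 genes for transcription factors known at oxidase promoters, 3 rose and 0 fell (10.4% and 3.69% of all tested genes did). The median of these 9 was 0.12. Spi1, which encodes PU.1, rose by 0.78 (standard error 0.13, edgeR, adjusted p = 0.0025), but had 0.03 on total counts alone. Cebpa rose by 1.25 and Cebpb by 1.60 (standard errors 0.25 and 0.44). Cebpb stood at 23.7 CPM in stress replicate 1 and at 5.96 to 8.86 CPM in the other stress libraries, and without that library it had 1.00 and did not pass (edgeR, adjusted p = 0.0752). It also lost its call in 4 of the other 7 fits that left out a library. The interferon-regulatory factors gave 0.11 for Irf1 and -0.31 for Irf8 (edgeR, adjusted p = 0.612 and 0.0653).

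**Figure D3:**
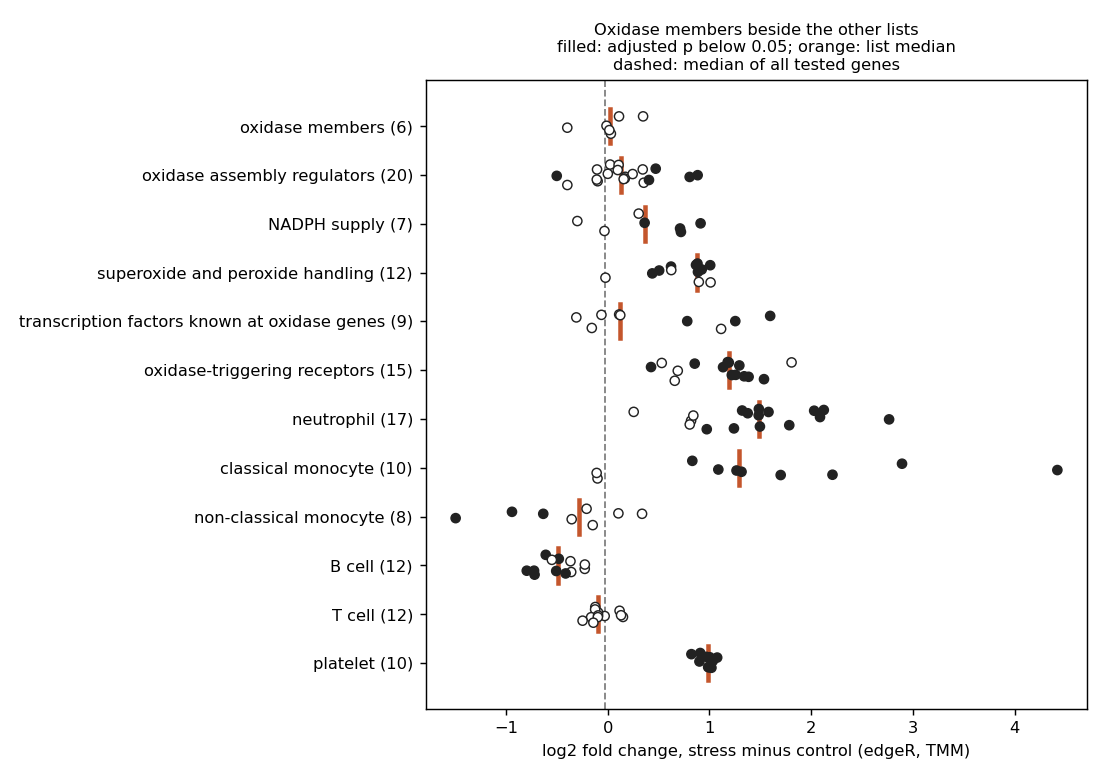
Log2 fold change (stress minus control, TMM) of every tested gene among the members, in 5 of the oxidase pathway lists and in 6 cell type marker lists, with the number of genes in brackets, filled where the adjusted p is below 0.05. The 6 members are open points between -0.40 and 0.35 around a median of 0.02, whereas neutrophil markers have a median of 1.48 and B cell markers one of -0.49.

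Markers of the cells that carry the oxidase differed between the groups. With edgeR and TMM 10.4% of all tested genes rose and 3.69% fell, which are the shares beside all marker lists. Of 17 tested neutrophil markers 13 rose and 0 fell (median 1.48), and their summed level was 221 to 433 CPM in control and 692 to 1004 CPM in stress libraries. Examples are S100a8 (1.49) and S100a9 (1.50), which form calprotectin, and the lectin gene Clec4d (1.58). Camp, a granule gene of immature neutrophils, had at most 8 counts in a library and was not tested. Of 10 classical monocyte markers 8 rose and 0 fell (median 1.29, summed 538 to 648 and 880 to 1381 CPM), among them F13a1 (1.27), Chil3 (2.89) and Lyz2 (1.32). By flow cytometry, however, the paper counted fewer monocytes, T cells, B cells and NK cells in blood after restraint, and more neutrophils. Those are numbers of cells, whereas the values here are levels of RNA. Of 8 non-classical monocyte markers 0 rose and 3 fell (median -0.28, summed 314 to 386 and 257 to 355 CPM), namely Cd300e (-1.49), Ace (-0.94) and Pou2f2 (-0.63). With a library left out Ace lost its call in 6 of 8 fits, Cd300e in 5 and Pou2f2 in 2, and Ace also with upper quartile scaling (edgeR, adjusted p = 0.0578). Of the eosinophil markers, 3 were tested, and Siglecf rose by 1.12 (lost in 6 of 8 fits with a library left out) while Il5ra fell by 0.80 on the log2 scale.

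Among lymphocytes, 7 of 12 B cell markers fell and 0 rose (median -0.49, summed 1163 to 1434 and 795 to 1037 CPM), such as Cr2 (-0.79), Fcer2a (-0.72) and Cd22 (-0.72). Of 12 T cell markers and 7 NK cell markers 0 passed at an adjusted p of 0.05 with edgeR, with medians of -0.09 and -0.16. The closest were Bcl11b (-0.25) and Tcf7 (-0.16) for T cells, and Ncr1 (-0.58) and Prf1 (-0.29) for NK cells. All 10 platelet markers rose (median 0.99), for example F2rl2 (1.08), P2ry12 (0.97) and Gp1ba (0.90), but on total counts alone 0 of 10 passed (median 0.22). With that scaling 7 of 17 neutrophil markers passed as higher, and of 10 classical monocyte markers 4 passed as higher and 2 as lower. As lower passed 12 of 12 B cell, 9 of 12 T cell, 6 of 7 NK cell and 6 of 8 non-classical monocyte markers. The share of all tested genes that passed with that scaling is not given here. Of 7 red cell markers 0 passed (median 1.04), and of 7 haemoglobin genes 2 did, Hba-a2 (1.37) and Hbq1a (1.06), genes of a family with near-identical copies, each lost in 6 of 8 fits with a library left out. In whole blood, fewer cells of a type and less RNA per cell cannot be told apart, and the part of these cell types in the values of the oxidase genes was not tested.

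Each member was also set against the summed counts of 3 marker lists in its own library, which needs no scaling. The neutrophil, classical monocyte and B cell sums already differed between the groups without overlap, so these ratios carry that difference and are no separate evidence on the members. Of 18 such ratios 16 passed (exact permutation test, two-sided, each with the smallest possible p, 0.0286, adjusted 0.0321). Relative to neutrophil markers all 6 members were lower in every stress library than in any control library, by 1.88-fold for Cyba up to 3.14-fold for Hvcn1. Ncf1 counts amounted to 16.9%, 19.1%, 25.7% and 14.1% of the neutrophil marker counts in control libraries and to 8.91%, 7.68%, 8.13% and 6.97% in stress libraries. For Rac2 this share was 52.0%, 61.5%, 95.3% and 46.0% in control libraries and 29.1%, 28.0%, 27.9% and 20.0% in stress libraries. Relative to classical monocyte markers all 6 were lower too, by 1.57-fold for Cyba up to 2.61-fold for Hvcn1.

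Against the B cell markers the members divided. Cyba, Ncf1, Ncf4 and Rac2 were higher under stress in every library, by log2 differences of 0.79, 0.47, 0.56 and 0.47. For Cybb the difference was 0.37 and the groups overlapped (exact permutation test, p = 0.2, adjusted 0.212). Hvcn1 counts were 2.94%, 2.66%, 2.87% and 2.62% of the B cell marker counts in control libraries and 2.74%, 2.80%, 3.0% and 2.95% in stress libraries. These 8 values lay over each other, with a log2 difference of 0.05 (exact permutation test, p = 0.343, adjusted 0.343).

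**Figure D4:**
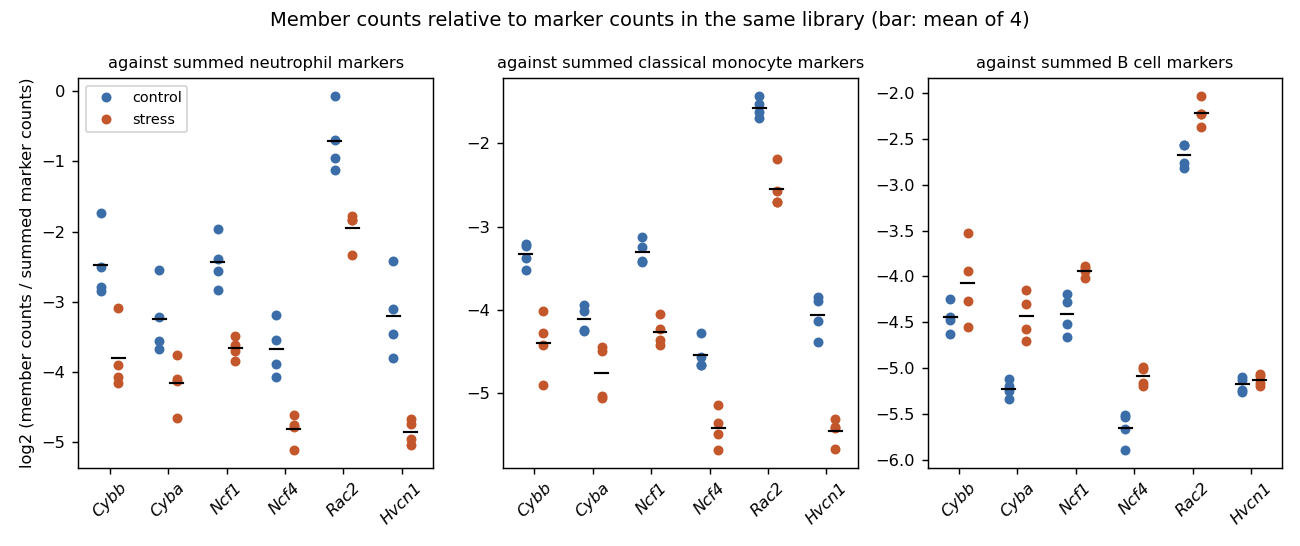
Log2 ratio of each member's counts to the summed counts of neutrophil, classical monocyte or B cell markers in the same library (the 3 panels have their own axes), with 4 points per group and their mean as a bar. In the first 2 panels the stress points lie below the control points for all 6 members, and in the B cell panel they lie above for 4 members and overlap for Cybb and Hvcn1.

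Likeness of pattern was taken as the root mean square difference of centred log2 CPM over the 8 libraries. For Hvcn1 the nearest of all tested genes were 2310061I04Rik (0.0775), Parp1 (0.0830) and Bank1 (0.0843), the last of which is on the B cell list. Cyba was nearest to Slfn2 (0.0445), Pdrg1 (0.0510) and Clic1 (0.0569), and Ncf1 to Pias3 (0.0474), Fcgr2b (0.0541) and Traf7 (0.0600). Ncf4 was nearest to Psip1 (0.0493), Evi5 (0.0619) and Rnf13 (0.0652), and Rac2 to Poldip3 (0.0331), Sash3 (0.0336) and Bnip2 (0.0385). For Cybb the nearest were Ehd2 (0.111), Prmt6 (0.121) and Acvrl1 (0.121), all at a mean under 4 CPM in both groups. Within a difference of 0.1 lay 405 genes for Rac2, 104 for Ncf4, 80 for Ncf1, 57 for Cyba, 11 for Hvcn1 and 0 for Cybb. With 1 library left out, 3 to 10 of these 18 neighbours stayed among the nearest, the fewest without stress replicate 3, so that single names are weakly fixed.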

How the data were processed

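RNA of peripheral blood was sequenced by the authors with a TruSeq kit. The authors deposited raw counts per gene symbol, 1 column per mouse, without normalization. The submitters' processing notes name HISAT2, featureCounts and mm10. Versions, annotation and strand setting are not given in the sources used here. From these counts, genes that reached 10 counts in 4 or more of the 8 libraries were tested with edgeR 4.0.16 (R 4.3.3, TMM, robust quasi-likelihood test, group only, Benjamini-Hochberg adjustment). A tested gene had a median of 341 counts in control and 168 counts in stress libraries. The scripts were tested on simulated data. Ratios within a library used a pseudocount of 0.5 and an exact permutation test over 70 assignments (SciPy 1.17.1). Per-kilobase values used merged exons of GENCODE M21. Promoter windows were matched for 3 of the 6 members in the RefSeq table.

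The members, lists and tests were chosen with earlier results of these data known. Named genes are the members, the oxidase partners Rac1 and Noxo1, up to 3 genes per list and direction with the smallest p past an adjusted p of 0.05 (the smallest p where fewer than 2 passed), and the 3 nearest genes of each member. Irf1, Irf8 and the untested genes were named outside this rule, after their values were seen. Some genes that the rule names are not reported here. Alternatives were other scalings (RLE, upper quartile, total counts), no haemoglobin genes, other count filters, DESeq2 1.42.0, limma-voom (limma 3.58.1), other pseudocounts, a replicate block and leaving out each library. The ratio of Rac1 to Rac2, the nearest genes under other settings and the counts of ratios without overlap were added after seeing the data.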

Additional observations from a re-analysis of the deposited data

Results flagged for a closer look

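Among 78 groups of 4 libraries that were examined for a value far from the other 3, 3 held one, where chance gives about 1 in 20 groups. Cyba stood at 55.3 CPM in stress replicate 3, above 39.9 to 41.5 CPM in the other stress libraries. The count ratio of Cyba to Hvcn1 was 1.10 in control replicate 4, above 0.920 to 0.933 in the other control libraries. The ratio of Rac2 counts to summed neutrophil marker counts was 0.200 in stress replicate 4, below 0.279 to 0.291 in the other stress libraries. Stress replicate 3 had the fewest counts outside haemoglobin (6352711) and stress replicate 4 the most of its group (11007593), and the part of depth in these values was not tested.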

How the results depend on the processing

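Scaling by total counts alone changed most. It called 742 genes (14 higher, 728 lower) in place of 200, and called 1 member (Hvcn1) in place of 0. At an adjusted p of 0.05 scaling by total counts passed 3 members and 18 pathway genes, against 0 and 33 with TMM. The share of all tested genes past 0.05 with total counts is not given here. The log2 fold changes turned for Cyba (-0.50), Ncf1 (-0.72), Ncf4 (-0.68), Rac2 (-0.78, adjusted p = 0.0206), Mapk14 (-0.35), Rap1a (-0.34), Pgd (-0.052) and Idh1 (-0.081), and those of Cybb (-0.75, adjusted p = 0.0484) and Hvcn1 (-1.21, adjusted p = 0.00964) passed with edgeR. DESeq2 called 319 genes (307 higher, 12 lower) and passed 2 members, Cyba at 0.36 and Hvcn1 at -0.39. Hvcn1 alone passed with upper quartile scaling (-0.41), without a count filter (-0.39) and with 10 counts required in all 8 libraries (-0.40), so 1 member passed in each. With RLE size factors, limma-voom or no haemoglobin genes 0 members passed.

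Leaving out single libraries gave 77 to 345 called genes (77 without control replicate 2, 96 without control replicate 3 and 345 without control replicate 4), 0 to 0 called members, 0 to 1 members past an adjusted p of 0.05 and 21 to 37 pathway genes (21 without control replicate 2). Hvcn1 ranged from -0.46 to -0.28 and passed without control replicate 4, stress replicate 3 or stress replicate 4. Cybb ranged from -0.22 to 0.15 and was above 0 without control replicates 3 (0.04) or 4 (0.04) or stress replicates 2 (0.15) or 3 (0.14). Ncf1 ranged from -0.029 to 0.13 and was below 0 without stress replicate 4 (-0.029). Of the ratios to markers 0 to 0 passed with 7 libraries, where the exact test cannot go below 0.0571, and in each case 16 of 18 remained without overlap.

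The replicate numbers did not pair the libraries: the correlations of same-numbered deviations were 0.06, 0.0004, -0.04 and -0.16, and 1 of 4 libraries fitted best with its own number. With the replicate block 190 genes were called, 0 members passed, and 0 of the 18 ratios to markers passed, since the sign-flip test of 4 differences cannot go below 0.125. Mapk14, Rap1a, Prkcb, Cebpb, Cd300e, Siglecf, Hba-a2 and Hbq1a no longer passed with the block. On total counts alone 23 of 36 named genes past an adjusted p of 0.05 lost their call. The causes of these changes were not tested. The depth outside haemoglobin was lower in every stress library than in any control library, which limits the precision for low genes such as Noxo1 most.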
